A study of Mus musculus with 60 samples.

Results

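The comparison set apart 4 groups of bulk medial prefrontal cortex (mPFC) by the label ANH. The SA:ANH and ANH groups carry that label, the SA and RES groups do not, and each group had 6 libraries, so that 12 libraries stood against 12. These 24 libraries were taken by their labels from a series of 60, as a layout in which the label SA is the other factor (SA:ANH and SA with it, ANH and RES without it). All came from DBA2/J mice, an inbred strain, expressing GFP-L10a, a ribosomal protein fused to green fluorescent protein. The series design names 5 days of social defeat, a stress by exposure to an aggressive mouse, but the labels do not say which groups went through it, and they do not spell out SA, ANH, RES or NS. Input libraries hold RNA of the whole tissue piece. IP libraries hold RNA pulled down with an antibody against GFP from the cells labelled aPVT projector, and are set beside Input where the same contrast was run in both. The 6 NS Input libraries were left out of the layout and are given as levels only. The labels name no age, sex, agent, time of day or promoter behind the GFP-L10a gene.

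Immediate early genes are switched on within minutes of neuronal activity, many of them through the factor CREB at cAMP response elements, and code for transcription factors and regulators of signalling. Clock genes form a loop in which CLOCK and BMAL1 bind E-boxes and turn on their own repressors and output genes, and in cortex their levels swing with the time of day. Myelin genes are read in oligodendrocytes, the cells that wrap axons. Gene groups of these kinds, and groups for synapses, receptors, peptides and mitochondria, were followed through the layout.

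Library totals were 20566990 to 27073456 counts. Summed marker levels over the 24 libraries were 5344 to 6121 CPM (counts scaled to a fixed library total) for the excitatory neuron list. They were 1953 to 2083 for the inhibitory list, 46.5 to 75.1 for the thalamic and septal list and 439.8 to 580 for the striatal list. The lists differ in size and no other tissue was compared, so these levels do not test the tissue label. Replicates of a group were close. For genes at 100 CPM or more, the median coefficient of variation within a group was 4.69% to 5.36%, against 1.49% to 1.57% from counting alone. Whether the 6 replicates are 6 animals is not stated, so p-values speak only of differences among these libraries, and those may be technical. The labels give no collection date, pool or library batch either, and any of these that followed the groups cannot be told apart from them. On the first principal component, replicates 1 and 2 of SA:ANH scored highest, at 44.9 and 41.8, while the other libraries lay between -40.0 and 33.0. Replicates 5 and 6 of ANH leaned most to transcripts low in GC, with correlations of log2 level with GC content of -0.317 and -0.483 across genes. Counts without these libraries are given below for some results only, and counts printed without them may also have differed.

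Levels moved modestly with the ANH label. Of 17767 genes tested, 1230 (6.92%) passed at an adjusted p under 0.05 (edgeR, quasi-likelihood; Benjamini and Hochberg's method), 647 higher (3.64%) and 583 lower (3.28%) in the groups with the label. The median size of the change among these 1230 was 0.22 on the log2 scale, and 28 were at least 1.5-fold higher and 81 at least 1.5-fold lower. In bulk tissue, fewer cells of a type and less RNA per cell cannot be told apart. Without replicates 1 and 2 of SA:ANH the count was 945, and without replicates 5 and 6 of ANH it was 631. For the SA label, the other factor of the layout, 347 genes passed (1.95%), 154 of them higher (0.867%).

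The label can be read in 2 separate pairs of groups that share no library. Between ANH and RES, 675 genes (3.8%) passed, 399 higher and 276 lower. Between SA:ANH and SA, 513 (2.89%) passed, 251 higher (1.41%) and 262 lower. In both pairs and in one direction 77 genes (0.433%) passed, 55 higher and 22 lower, while 10 passed in opposite directions. Of the 675, 503 had the same sign in the other pair (74.5%), as did 385 of the 513 (75%), against 56.8% of all genes tested. The difference between the pairs, tested as an interaction, passed for 89 genes (0.501%), and in 78 of these the pairs had opposite signs. Leaving out replicates 5 and 6 of ANH took the pair without SA to 214 genes, the shared set to 34 and the interaction to 48. Leaving out replicates 1 and 2 of SA:ANH took the pair with SA to 104, the shared set to 42 and the interaction to 43.

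**Figure D1:**
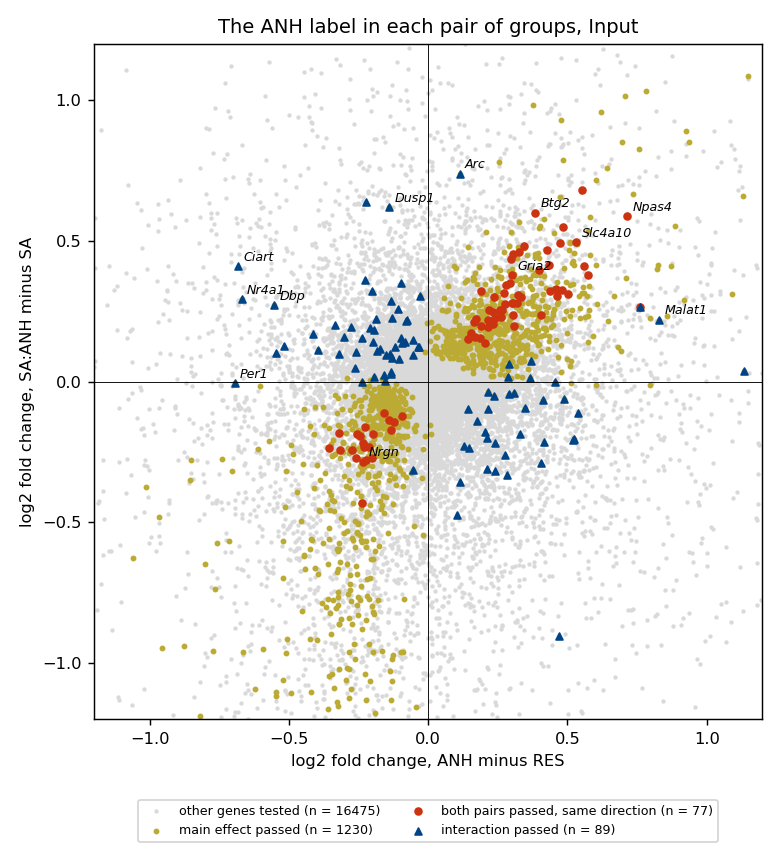
Log2 fold change of each gene tested in Input between ANH and RES (x axis) and between SA:ANH and SA (y axis), with axes ending at 1.2 (544 genes lie outside them). Colours mark genes past the main effect (1230), genes past both pairs in one direction (77, with Npas4, Btg2 and Gria2 at the upper right) and genes past the interaction (89, mostly in the quadrants where the signs differ, with Ciart, Nr4a1 and Dbp at the upper left).

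Among the immediate early genes, Npas4 and Btg2 were higher with the ANH label in both pairs. Npas4, an activity-dependent transcription factor of neurons, was at a lowest, median and highest of 10.6, 11.5 and 12.8 CPM in RES and 17.0, 18.1 and 23.1 in ANH. It was at 16.1, 17.5 and 21.3 CPM in SA and 23.7, 27.6 and 32.3 in SA:ANH. In neither pair did the groups overlap, and SA:ANH was the highest of the 4. The main effect was 0.65 ± 0.07 (log2, SE; adjusted p = 6.09e-07), with 0.71 between ANH and RES and 0.59 between SA:ANH and SA. Levels were also higher with the SA label (0.59, adjusted p = 1.46e-06), and NS ran from 9.34 to 16.8 CPM.

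Btg2, an antiproliferative gene induced by activity and damage, had the same order. RES libraries were at 24.1, 28.2 and 29.97 CPM and ANH libraries at 32.4, 35.5 and 41.7. SA libraries were at 32.1, 35.4 and 37.2 CPM and SA:ANH libraries at 47.0, 51.8 and 64.1. Neither pair overlapped, and SA:ANH again stood above all other groups. The main effect was 0.49 ± 0.05 (adjusted p = 8.09e-07). Both genes kept their calls in both pairs with GC and length trends taken out and without either pair of libraries named above.

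The promoters of Npas4, Btg2 and Dusp1 are shown because CREB sites are a known entry point of activity into them. Each RefSeq promoter on GRCm38.p6 is a window of 300 bases, most of it before the gene's start, and 11 of 12 genes looked up had an entry, Arc being the exception. Capitals mark the full cAMP response element TGACGTCA, its core TGACG outside a full element and the E-box CACGTG, on both strands. Npas4 (chr19:4989922-4990221), Btg2 (chr1:134079106-134079405) and Dusp1 (chr17:26508423-26508722) lie on the minus strand and read as follows.
Npas4: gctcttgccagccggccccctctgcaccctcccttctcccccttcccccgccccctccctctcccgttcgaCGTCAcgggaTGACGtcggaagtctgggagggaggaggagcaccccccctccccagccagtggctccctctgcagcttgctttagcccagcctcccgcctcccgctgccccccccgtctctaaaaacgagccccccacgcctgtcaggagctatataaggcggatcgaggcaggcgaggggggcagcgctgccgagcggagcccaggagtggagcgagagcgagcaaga
Btg2: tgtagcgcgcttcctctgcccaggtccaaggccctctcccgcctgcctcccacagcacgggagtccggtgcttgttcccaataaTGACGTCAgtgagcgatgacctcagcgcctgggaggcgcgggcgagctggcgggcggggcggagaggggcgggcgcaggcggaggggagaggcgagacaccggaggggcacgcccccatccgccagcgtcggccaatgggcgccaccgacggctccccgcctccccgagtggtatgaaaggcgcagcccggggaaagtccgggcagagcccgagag
Dusp1: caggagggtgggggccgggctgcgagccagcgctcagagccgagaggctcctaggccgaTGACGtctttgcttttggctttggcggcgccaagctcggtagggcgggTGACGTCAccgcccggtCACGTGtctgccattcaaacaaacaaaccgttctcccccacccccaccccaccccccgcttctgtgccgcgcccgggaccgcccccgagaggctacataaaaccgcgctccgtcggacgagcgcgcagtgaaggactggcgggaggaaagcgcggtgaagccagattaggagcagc
Btg2 and Dusp1 each held 1 full element, and Npas4 held 2 cores. The windows of Fos, Nr4a1 and Junb, which are not printed, held no full element and 2, 4 and 1 cores. Among 15829 promoters of genes tested, 2.77% held the full element, 28.8% the core and 9.41% the E-box. A match is a description of the letters and not evidence of binding.

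A second set of immediate early genes separated the pairs. In SA:ANH, Arc, which codes for a cytoskeletal protein of active synapses, was at 167, 194 and 219.7 CPM, against 105, 115 and 135 in SA. RES libraries were at 101, 105 and 110.2 CPM and ANH libraries at 94.8, 118 and 128. The pair with SA did not overlap and the pair without it did. Arc rose by 0.74 on the log2 scale between SA:ANH and SA (adjusted p = 1.17e-07) and differed by 0.11 between ANH and RES (adjusted p = 0.427), with an interaction adjusted p of 0.000419.

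Dusp1, a phosphatase that shuts off MAP kinases, followed that pattern at 77.3 to 94.9 CPM in SA:ANH and 51.5 to 63.6 in SA, with RES at 52.2 to 64.7 and ANH at 52.1 to 60.0. SA:ANH stood clear of the other 3 groups. The change was 0.62 with SA (adjusted p = 1.62e-07), -0.14 without it (adjusted p = 0.223), and the interaction passed (adjusted p = 1.71e-06). Fos, the classic marker of recent activity, was at 35.96, 46.7 and 49.4 CPM in SA:ANH and 25.4, 27.8 and 31.2 in SA, with no overlap. Its main effect missed the threshold (0.21, adjusted p = 0.0687), its change in the pair with SA passed (0.64, adjusted p = 0.000372), and so did the interaction (adjusted p = 0.000741).

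Nr4a1 and Junb crossed over. Nr4a1, a nuclear receptor induced by activity, was at 46.6, 52.5 and 57.6 CPM in RES and only 29.9, 32.9 and 36.2 in ANH. It was at 43.6, 46.5 and 52.0 CPM in SA and 53.2, 57.6 and 64.7 in SA:ANH. The groups overlapped in neither pair, and ANH lay lowest of the 4. The changes were -0.67 (adjusted p = 7.32e-08) and 0.29 (adjusted p = 0.0144), with an interaction of 0.96 (adjusted p = 6.33e-08). The rise with SA was lost without replicates 1 and 2 of SA:ANH (0.23, adjusted p = 0.123). Junb, a partner of Fos, went from 106.8 to 128 CPM in RES to 94.0 to 106 in ANH (-0.23, adjusted p = 0.00386) and from 116 to 133 in SA to 146 to 165 in SA:ANH (0.36, adjusted p = 1.94e-05). The fall of Junb no longer passed with GC and length trends taken out (-0.10, adjusted p = 0.301).

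Across the 20 tested members of the rapid immediate early list, 6 rose and 2 fell in the main effect, with a median of -0.02. Of all genes, 3.64% rose and 3.28% fell, with a median of 0.00. The pair with SA held 8 rises and 1 fall, against 1.41% and 1.47% of all genes, and 7 and 0 without replicates 1 and 2 of SA:ANH. The pair without SA held 3 and 3, against 2.25% and 1.55% of all genes. The interaction passed for 5, all higher, against 0.293% of all genes in that direction. Ier2 and Jun also rose in the main effect (0.30 and 0.17), Jund fell by 0.16, and Egr1 gave -0.03 (adjusted p = 0.65). The 24 slower activity-induced effectors gave 1 rise and 3 falls in the main effect, against 3.64% and 3.28% of all genes. These falls were Penk, Vgf and Per1, which also stand in other lists described here. Between SA:ANH and SA the 24 effectors gave 2 rises and 5 falls, against 1.41% and 1.47% of all genes. Between ANH and RES they gave 1 rise and 4 falls, against 2.25% and 1.55%. With GC and length trends taken out, the counts were 2 and 7 with SA and 0 and 3 without it. Gadd45g, which takes part in DNA repair and demethylation, rose by 0.21 (adjusted p = 0.0134). Bdnf, a growth factor for synapses, was at 0.19 ± 0.07 (adjusted p = 0.0925). Fkbp5, a gene induced by glucocorticoids, was at 0.00 ± 0.07 (adjusted p = 0.987), with group medians of 17.1 to 19.9 CPM in the 4 groups.

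**Figure D2:**
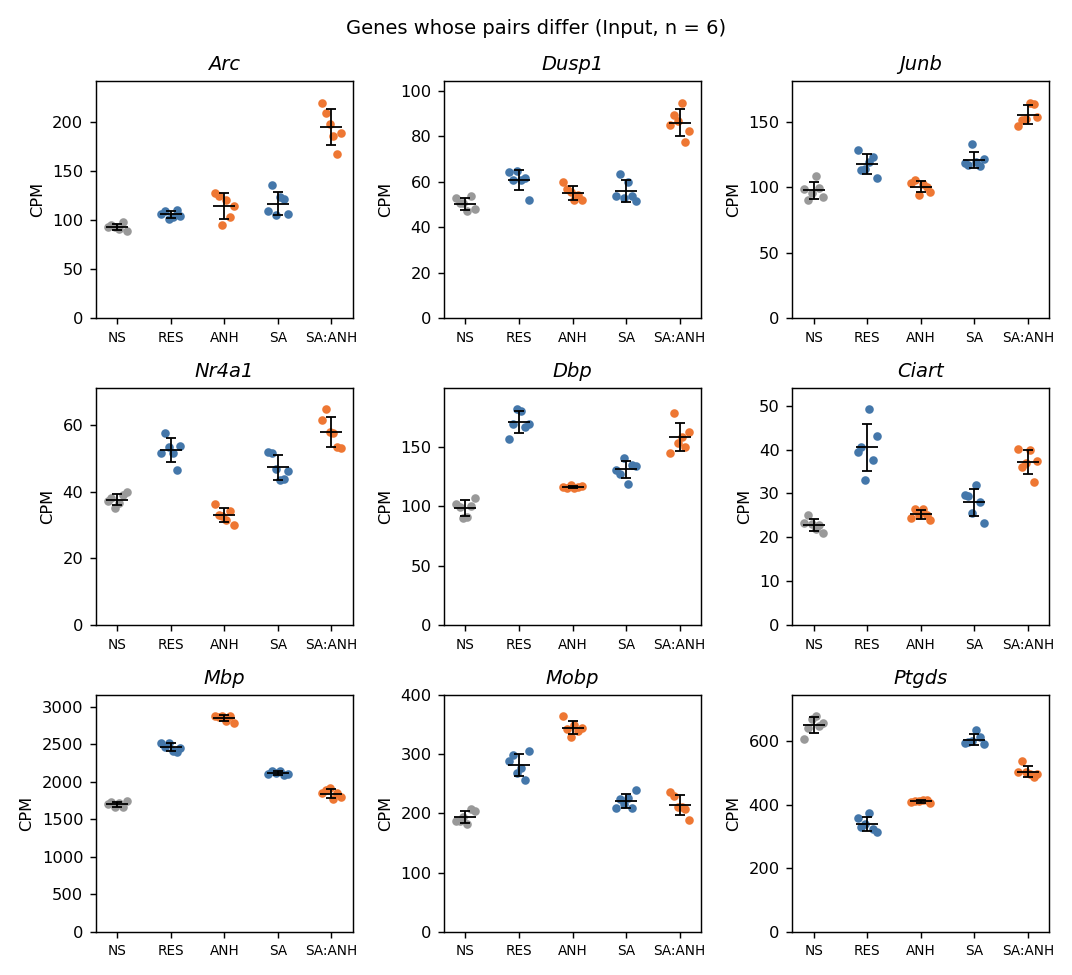
Input level in CPM (y axis) of 9 genes in each library of the 5 groups, with mean and SD as bars (n = 6) and the groups with the ANH label in orange. Arc and Dusp1 are high only in SA:ANH among the groups shown, Nr4a1, Dbp and Ciart are lower in ANH than in RES and higher in SA:ANH than in SA, and Mbp and Ptgds cross the other way.

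Among clock genes, Dbp and Ciart crossed over. Dbp, an output factor of the clock, was at 157, 169.8 and 182 CPM in RES and 115, 116 and 118 in ANH. It was at 119, 132 and 141 CPM in SA and 145, 156 and 179 in SA:ANH. No overlap occurred in either pair, and RES and SA:ANH were the 2 high groups. Dbp fell by 0.55 between ANH and RES (adjusted p = 2.59e-09) and rose by 0.27 between SA:ANH and SA (adjusted p = 0.00149), with an interaction of 0.82 (adjusted p = 1.02e-09). The 6 ANH libraries agreed to a coefficient of variation of 0.838%, below the 1.89% that counting alone would give. Genes that close were rare: 0.59% of genes at 100 CPM or more in ANH lay under their counting error.

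Ciart, a repressor within the clock, was at 33.2, 40.0 and 49.2 CPM in RES and 24.003, 25.0 and 26.5 in ANH. It was at 23.2, 28.7 and 32.0 CPM in SA and 32.6, 37.2 and 40.2 in SA:ANH. Both pairs were free of overlap and pointed opposite ways, at -0.68 (adjusted p = 4.14e-06) and 0.41 (adjusted p = 0.00769), and the interaction was 1.09 (adjusted p = 8.21e-07). Nr1d1, a nuclear receptor that represses Bmal1, was at 135 to 143 CPM in RES and 97.2 to 112 in ANH (-0.39, adjusted p = 2.48e-07), while SA and SA:ANH overlapped (0.11, adjusted p = 0.136). Per1, a repressor of CLOCK and BMAL1, was at 17.95, 20.7 and 22.3 CPM in RES and 10.7, 11.5 and 16.8 in ANH, without overlap. It fell by 0.70 there (adjusted p = 0.000227) and differed by -0.01 in the other pair (adjusted p = 0.986). The interaction of Per1 (adjusted p = 0.0261) did not pass with GC and length trends taken out (adjusted p = 0.0599), without replicates 1 and 2 of SA:ANH (0.0804) or without replicates 5 and 6 of ANH (0.135). Its size went from 0.69 to 0.61, 0.68 and 0.62 in these fits.

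The promoters of Ciart (chr3:95882179-95882478, minus strand) and Per1 (the first of 2 entries, chr11:69098699-69098998, plus strand) are shown because the E-box is the site of CLOCK and BMAL1, with capitals as above.
Ciart: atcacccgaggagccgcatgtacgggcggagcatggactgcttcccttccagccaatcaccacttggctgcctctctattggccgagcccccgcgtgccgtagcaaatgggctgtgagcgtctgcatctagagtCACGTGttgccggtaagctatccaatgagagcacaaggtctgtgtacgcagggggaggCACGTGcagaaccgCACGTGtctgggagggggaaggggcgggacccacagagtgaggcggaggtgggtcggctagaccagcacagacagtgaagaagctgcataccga
Per1: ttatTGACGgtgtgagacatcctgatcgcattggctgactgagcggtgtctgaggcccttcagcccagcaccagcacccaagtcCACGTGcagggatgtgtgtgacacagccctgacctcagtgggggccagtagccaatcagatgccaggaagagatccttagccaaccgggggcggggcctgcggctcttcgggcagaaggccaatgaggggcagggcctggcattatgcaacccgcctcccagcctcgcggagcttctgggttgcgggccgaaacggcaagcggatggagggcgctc
Ciart held 3 E-boxes, and this entry of Per1 held 1 beside 1 core of the cAMP response element. The second entry of Per1 held no E-box and 1 core. The windows of Dbp, Nr1d1 and Nr1d2 held none of the 3 motifs.

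In the clock list as a whole, 19 members were tested. Between ANH and RES, 6 fell (Per1, Dbp, Ciart, Nr1d1, Bhlhe40 and Bhlhe41) and 2 rose (Nr1d2 and Arntl, which codes for BMAL1). Between SA:ANH and SA, 3 rose (Ciart, Dbp and Tef) and none fell. Among all genes 2.25% rose and 1.55% fell in the first pair, and 1.41% and 1.47% in the second. The interaction passed for 6, all in the same direction, against 0.293% of all genes in that direction. In the main effect 3 rose and 3 fell, against 3.64% and 3.28% of all genes, with a median of -0.02. Nr1d2, which unlike Nr1d1 was higher with the label, was at 21.4 to 28.6 CPM in ANH and 13.8 to 22.7 in RES (main effect 0.47, adjusted p = 0.0033). Its change between ANH and RES was lost with GC and length trends taken out (0.38, adjusted p = 0.176). Without replicates 1 and 2 of SA:ANH the interaction count was 4, and without replicates 5 and 6 of ANH it was 5. NS libraries, outside the layout, were at 89.8 to 107.2 CPM for Dbp and 20.9 to 25.1 CPM for Ciart, low like those of ANH. The time of day of tissue collection is not in the labels and cannot be told apart from the groups.

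Myelin genes moved in opposite directions in the 2 pairs. Mbp, myelin basic protein, was at 2398, 2454 and 2519.8 CPM in RES and 2783, 2866 and 2872 in ANH. SA libraries were at 2091, 2107 and 2146 CPM and SA:ANH libraries at 1765, 1847 and 1909. The 4 groups did not overlap at all and ran in the order ANH, RES, SA, SA:ANH. Mbp rose by 0.21 without SA (adjusted p = 2.41e-08) and fell by 0.20 with it (adjusted p = 1.62e-07), so the main effect was 0.01 (adjusted p = 0.857) and the interaction passed at 2.74e-11.

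Mobp, a structural myelin gene, and Car2, a carbonic anhydrase of oligodendrocytes, rose without SA (0.29 and 0.21) and gave -0.04 each with it, and both interactions passed (adjusted p = 0.0104 and 0.00143). Tspan2, a membrane protein of maturing oligodendrocytes, rose by 0.47 without SA, and its interaction did not pass (adjusted p = 0.214). Ptgds, prostaglandin D synthase, made by oligodendrocytes and meninges, was at 314, 334.5 and 374 CPM in RES, 405, 413 and 416 in ANH, 591, 598 and 635 in SA and 487, 500.2 and 538 in SA:ANH. It crossed like Mbp at 0.28 and -0.26 (interaction adjusted p = 1.1e-08), but its groups with SA were the high ones, unlike those of Mbp.

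Of 22 tested members of the mature oligodendrocyte and myelin list, 8 rose and none fell between ANH and RES, and none rose and 6 fell between SA:ANH and SA. Among all genes 2.25% rose in the first pair and 1.47% fell in the second. The falls were in Mbp, Cldn11, Mag, Cryab, Aspa and Mog, which code for myelin and oligodendrocyte proteins. The interaction passed for 5, all lower, against 0.208% of all genes in that direction. The main effect held 4 rises and no fall, with a median of 0.04, and 2 rises without replicates 5 and 6 of ANH. Summed over the list, levels were 4968 to 5151 CPM in RES, 5797 to 6015 in ANH, 4290.3 to 4400.5 in SA, 3805 to 3985 in SA:ANH and 3613 to 3759 in NS. Without replicates 1 and 2 of SA:ANH, 3 fell in the pair with SA and the interaction passed for 6. The rises were 10, the falls 8 and the interactions 8 with GC and length trends taken out.

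Markers of other cell types were counted in the main effect, where 3.64% of all genes rose and 3.28% fell. The astrocyte list gave 4 rises and 2 falls of 20, with summed levels of 5366 to 5729.7 CPM in the 4 groups. Gfap, the filament protein of astrocytes, was at 71.2 to 76.8 CPM in RES, 81.3 to 95.0 in ANH, 58.8 to 70.8 in SA and 67.0 to 85.9 in SA:ANH, a main effect of 0.24 ± 0.04 (adjusted p = 0.000172), and NS was higher than all at 100.6 to 117 CPM. Its change in the pair with SA was lost without replicates 1 and 2 of SA:ANH (0.19, adjusted p = 0.12). Fgfr3 and Gjb6 rose (0.22 and 0.19) and S100b fell by 0.16. The microglia list gave 2 rises and no fall of 20, the endothelial and mural list 2 rises and 1 fall of 20, and the meningeal list none of 13. Between ANH and RES the meningeal list had a median of 0.52, with 1 member, the growth factor Igf2, past the test (0.52, adjusted p = 0.00734), and the interaction of Igf2 passed too (adjusted p = 0.0239). Red cell genes, a sign of blood left in the tissue, gave 2 rises of 5, and 3 rises with a median of 0.28 between ANH and RES. They summed to 1169.5 to 1386 CPM in RES, 1489.7 to 1569 in ANH, 1458 to 1653 in SA and 1433 to 1609 in SA:ANH. Between SA:ANH and SA none of the 5 rose and 1 fell, and the interaction passed for 2, both lower. The part of blood and meninges in the results was not tested.

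A synaptic gene held the smallest adjusted p of the main effect. Gria2, the AMPA receptor subunit that blocks calcium, was at 169.1, 176 and 178 CPM in RES and 200.1, 214 and 232 in ANH. It was at 146, 153 and 167 CPM in SA and 196, 203 and 205 in SA:ANH. All 12 libraries with the label lay above all 12 without it, and the main effect was 0.34 ± 0.03 (adjusted p = 1.57e-09). NS lay across that gap, at 174 to 210.1 CPM. With GC and length trends taken out the main effect still passed, while the pair without SA did not (0.11, adjusted p = 0.297) and the interaction did (0.31, adjusted p = 0.031).

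Snap25, a fusion protein of synaptic vesicles, rose by 0.20 ± 0.02 (adjusted p = 2.2e-07), from 1978 to 2463 CPM over the libraries without the label to 2278 to 2739 with it. The libraries with and without the label overlapped, and neither pair of groups did. Its change between ANH and RES (0.17) became -0.02 with GC and length trends taken out (adjusted p = 0.831). Serinc1, a membrane protein named for serine incorporation into lipids, rose by 0.30 ± 0.03 (adjusted p = 3.01e-08), at 455 to 499.7 CPM in RES, 553 to 633.5 in ANH, 399.9 to 438 in SA and 459 to 557 in SA:ANH. Rapgef4, a cAMP-activated exchange factor for Rap proteins, rose by 0.32 (adjusted p = 8.59e-07). Slc4a10, a bicarbonate transporter of neurons, was at 30.8 to 43.7 CPM in RES, 49.0 to 61.6 in ANH, 26.8 to 34.2 in SA and 33.0 to 47.5 in SA:ANH, a rise of 0.51 ± 0.06 (adjusted p = 2.96e-06).

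**Figure D3:**
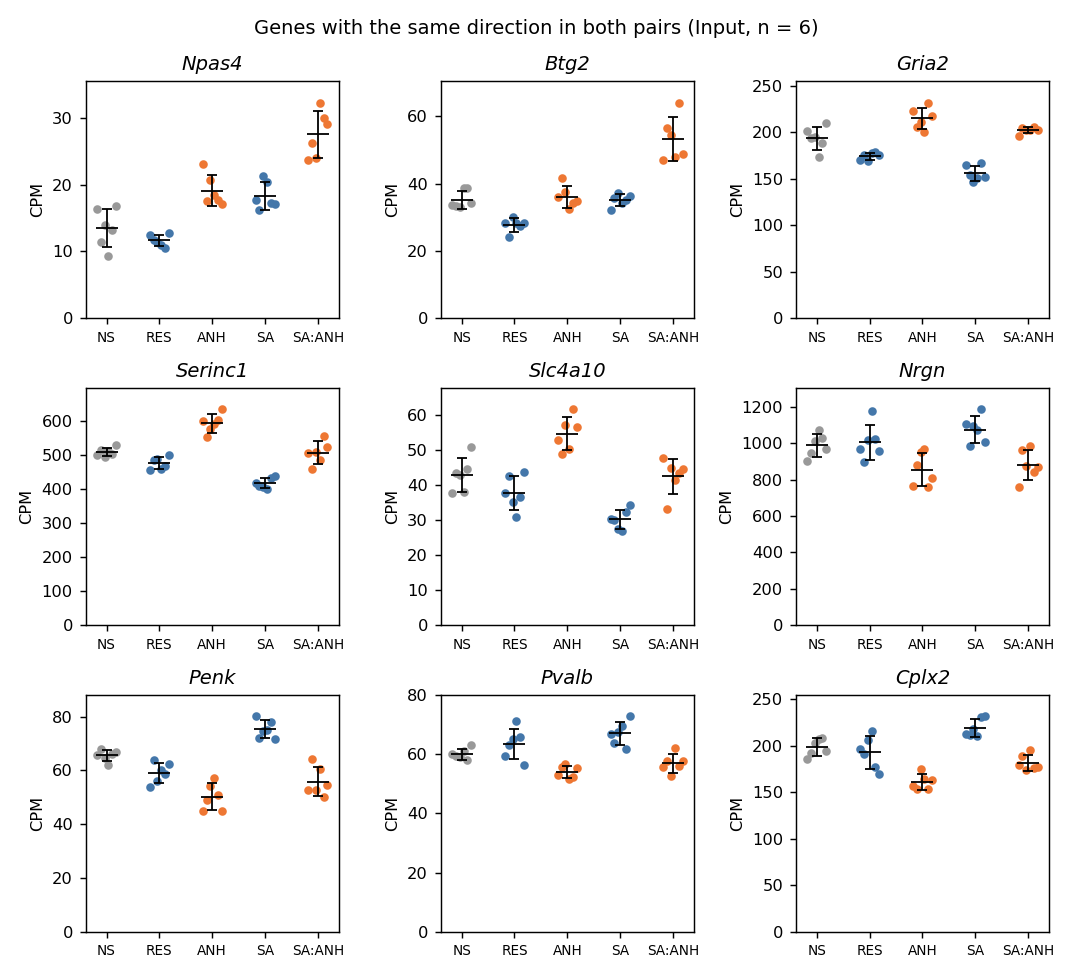
Input level in CPM (y axis) of 9 genes in each library of the 5 groups, with mean and SD as bars (n = 6) and the groups with the ANH label in orange. Npas4, Btg2, Gria2, Serinc1 and Slc4a10 are higher in ANH than RES and in SA:ANH than SA, and Nrgn, Penk, Pvalb and Cplx2 are lower in both pairs.

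Receptor subunits were unevenly affected. In the ionotropic glutamate receptor and scaffold list, 5 of 41 rose and 2 fell, against 3.64% and 3.28% of all genes, and the median was 0.00. Gria3, another AMPA subunit, rose by 0.22 (adjusted p = 0.00157), and Dlg1, a scaffold, by 0.23 (adjusted p = 0.00834). Dlgap3, a scaffold of excitatory synapses, fell by 0.23 (adjusted p = 0.0048). Of 15 GABA receptor genes, 5 rose and none fell, with a median of 0.11. Gabrb2 rose by 0.40 (adjusted p = 0.00119) and Gabra5 by 0.17. Only 2 of the 15 passed with GC and length trends taken out, and neither Gabra5 nor Gria3 did. When replicates 5 and 6 of ANH were left out, 3 of the 15 rose, as did 3 of the 41 glutamate genes. None of 32 monoamine and acetylcholine receptor genes passed. For a list of that size this is not far from the 6.92% of all genes.

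In the synaptic vesicle list 4 of 30 rose and 7 fell, against 3.64% and 3.28% of all genes. The counts were 2 and 4 without replicates 5 and 6 of ANH. Cplx2, which clamps vesicle fusion, was at 169 to 216 CPM in RES and 154 to 175 in ANH, and at 211 to 232 in SA and 174 to 196 in SA:ANH. Only the pair without SA overlapped. Cplx2 fell by 0.26 ± 0.03 (adjusted p = 1.23e-05), and the fall passed in both pairs. Rab3a, a vesicle GTPase, fell by 0.09 and Napb, which helps to recycle fusion proteins, rose by 0.10. Napb did not pass with GC and length trends taken out.

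Several neuron genes fell with the label in both pairs. Penk, the precursor of enkephalin peptides, was at 53.7, 59.4 and 63.7 CPM in RES and 44.8, 49.9 and 57.3 in ANH. It was at 71.6, 74.9 and 80.2 CPM in SA and 50.3, 53.5 and 64.1 in SA:ANH. The pair with SA did not overlap, and SA was the highest group. Penk fell by 0.33 ± 0.05 (adjusted p = 2.96e-05). Penk also stands in the list of striatal neuron markers, of which 2 of 18 fell, and that list summed to 551 to 580 CPM in SA and 439.8 to 508 in the other 3 groups. The part of tissue from the striatum in this result was not tested.

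Nrgn, a calmodulin-binding protein of spines, was at 897 to 1177 CPM in RES, 762 to 969 in ANH, 986 to 1188 in SA and 759.9 to 985 in SA:ANH, a fall of 0.26 (adjusted p = 0.000559). Pvalb, which marks fast-spiking interneurons, was at 56.2 to 71.0, 51.7 to 56.5, 61.7 to 72.8 and 52.4 to 62.2 CPM in the same order, a fall of 0.23 (adjusted p = 0.000507). All 12 libraries with the label lay below the median of the others for Penk, Nrgn and Pvalb. For each of the 3, the change between ANH and RES did not pass with GC and length trends taken out (adjusted p = 0.189, 0.301 and 0.0784) or without replicates 5 and 6 of ANH (0.186, 0.249 and 0.0859). The changes of Nrgn and Pvalb between SA:ANH and SA did not pass without replicates 1 and 2 of SA:ANH (adjusted p = 0.0599 and 0.0957). Of 20 neuropeptide genes, 3 fell (Penk, Vgf and Cck) and none rose, against 3.28% and 3.64% of all genes. With GC and length trends taken out only Penk passed, and Cck, which had fallen by 0.08, turned to 0.02. The inhibitory neuron list gave 2 rises (Gad1 and Nxph1, at 0.10 and 0.18) and 1 fall (Pvalb) of 22, with Sst at -0.08 (adjusted p = 0.0572). Neither rise passed with GC and length trends taken out (adjusted p = 0.209 and 0.138). The excitatory list gave 2 of each of 15, with Neurod6 and Sv2b higher (0.23 and 0.15).

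The other genes with the largest rises were at low levels, between 8.44 and 33.0 CPM on average over the 12 libraries with or without the label. Trim23, an ubiquitin ligase, rose by 0.62 ± 0.11 (adjusted p = 0.000477), at 9.002 to 11.96 CPM in RES, 11.9 to 19.1 in ANH, 6.06 to 11.5 in SA and 8.27 to 15.6 in SA:ANH. Ccn1, a matrix protein of vessels induced by serum, rose by 0.55 (adjusted p = 0.00255), and Cav2, a caveola protein, by 0.48 (adjusted p = 0.00251). Slitrk4, a synaptic adhesion protein, rose by 0.52 (adjusted p = 0.00166) and the zinc finger factor Zfp281 by 0.52 (adjusted p = 0.000245). Bbs7, a part of the transport complex of cilia, rose by 0.50, Ccng1, a target of p53, by 0.49, Far1, a reductase of fatty acids, by 0.48 and Tmem184c by 0.48. Libraries with and without the label overlapped for each of these 9 genes, and at least 11 of 12 libraries with the label lay above the median of the others.

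The largest falls had a wider spread. The mitochondrial transfer RNA genes mt-Ts1 and mt-Tq, short transcripts beside or within others, fell by 0.65 and by 0.55 (adjusted p = 0.0184 and 0.0419). With GC and length trends taken out they gave -0.35 and -0.25, and neither passed (adjusted p = 0.0614 and 0.197). Lrrc17, a secreted protein with leucine-rich repeats, ran from 81.4 to 247 CPM in SA and from 45.2 to 110.4 in SA:ANH, and fell by 0.53 (adjusted p = 0.0334). These 3 and Tatdn1, Syt2 and Pald1 passed neither without replicates 1 and 2 of SA:ANH nor without replicates 5 and 6 of ANH. Rara, a receptor for retinoic acid, was at 8.48 to 13.6 CPM in RES, 8.37 to 9.83 in ANH, 9.75 to 14.4 in SA and 6.65 to 9.001 in SA:ANH, a fall of 0.43 ± 0.09 (adjusted p = 0.0031) that held in both of those fits. Gstp2, a glutathione transferase with close copies, fell by 0.46 and Tatdn1, which overlaps Rnf139, by 0.43. Tatdn1 averaged 49.4 CPM in RES, 46.5 in ANH, 65.4 in SA and 38.3 in SA:ANH. Lrrc17 averaged 112, 105, 156 and 80.2 CPM in that order, so both differed little between ANH and RES. The change of Gstp2 between SA:ANH and SA (-0.66) did not pass without replicates 1 and 2 of SA:ANH (-0.47, adjusted p = 0.177). Syt2, a calcium sensor of fast synapses, fell by 0.43, Pald1 by 0.40, the corepressors Bcorl1 and Rcor2 by 0.39 and by 0.37, and the growth factor Pdgfb by 0.37. H2ac24, a histone gene with close copies, and Sp3os, an antisense transcript of Sp3, fell by 0.36 and by 0.35. H2ac24 gave -0.15 with GC and length trends taken out and no longer passed (adjusted p = 0.408), nor did Pald1 and Rcor2 (-0.40 and -0.34, adjusted p = 0.06 and 0.0599). Annotated genes also overlap Dbp, Ciart, Nr1d1, Junb, Dusp1, Mobp, Rapgef4, Malat1, Syt2, Pdgfb and Ndufb9. The sources used here do not state whether counting used strand, so reads of overlapping or copied genes cannot be assigned with certainty.

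Some nuclear long noncoding RNAs rose in bulk tissue and fell in the pulldown. In IP, 1813 of 16320 genes passed (11.1%), 834 of them lower (5.11%). The difference between fractions, Input minus IP, passed for 1888 of 18609 (10.1%), more positive for 878 (4.72%) and more negative for 1010 (5.43%). Malat1, a nuclear speckle RNA, was at 174, 194 and 199 CPM in RES and 275, 334 and 428 in ANH, without overlap. SA libraries were at 208, 220.0 and 293 CPM and SA:ANH libraries at 232, 262 and 344, and these overlapped. The main effect was 0.52 ± 0.07 in Input (adjusted p = 5.12e-06) and -0.64 in IP (adjusted p = 4.22e-06), and the difference between fractions was 1.17 (adjusted p = 4.38e-10). The interaction of Malat1 (-0.61, adjusted p = 0.0191) did not pass without replicates 1 and 2 of SA:ANH (-0.51, adjusted p = 0.105) or without replicates 5 and 6 of ANH (-0.54, adjusted p = 0.0642).

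Meg3, an imprinted noncoding RNA, gave 0.13 in Input and -0.79 in IP, and Snhg11 gave 0.22 and -0.72. In IP, Meg3 was at 132 to 150.4 CPM in RES, 83.4 to 102 in ANH, 267 to 318 in SA and 139 to 169 in SA:ANH. For both genes the interaction in Input passed (adjusted p = 2.13e-06 and 7.96e-05), with rises of 0.35 and 0.37 between ANH and RES and changes of -0.09 and 0.07 between SA:ANH and SA. Of 11 tested members of the list, 4 rose in Input and 5 fell in IP, with medians of 0.13 and -0.48. Penk also turned, at -0.33 in Input and 0.72 in IP (difference adjusted p = 3.38e-15), as did Gria2, at 0.34 and -0.09 (difference adjusted p = 2.07e-12). Mbp gave 0.01 in Input and fell by 0.53 in IP. Ap3b2, a neuronal vesicle adaptor, gave 0.08 and -0.95, and Olfm1, a secreted neuronal protein, -0.06 and 0.26.

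Of the immediate early genes, Arc had a main effect that rose in both fractions, by 0.43 in Input and 0.37 in IP (adjusted p = 0.000606 in IP). The main effect of Nr4a1 was a fall in both, by 0.19 and by 0.30. In Input, though, Arc passed only in the pair with SA. The Input value of Nr4a1 averages a fall without SA and a rise with it. Tests of the 2 pairs in IP are not given here, so whether the fractions share these patterns is not shown. In IP the main effect did not pass for Npas4 (0.18, adjusted p = 0.496), Btg2 (0.25, adjusted p = 0.089), Dusp1 (-0.15, adjusted p = 0.101), Fos (0.00, adjusted p = 0.987) or Junb (-0.10, adjusted p = 0.0652). In the pair with SA, IP levels of Npas4 were 8.01 ± 1.84 CPM (SD, n = 6) in SA:ANH and 12.1 ± 2.41 in SA, those of Dusp1 40.0 ± 4.85 and 53.4 ± 4.08, and those of Fos 16.5 ± 2.59 and 23.1 ± 2.44. These 3 means were lower in SA:ANH than in SA, the opposite order to Input, and no test of this pair alone in IP is reported here. In the pair without SA, IP means were 14.6 CPM in ANH and 7.55 in RES for Npas4, 47.5 and 43.5 for Dusp1 and 28.2 and 20.1 for Fos.

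Some genes of mitochondrial respiration fell by small amounts. Of 74 nuclear-encoded genes of oxidative phosphorylation, 22 fell and 2 rose, with a median of -0.07, against 3.28% of all genes falling and a median of 0.00. Ndufb9 and Ndufb8, subunits of complex I, both fell by 0.14 (adjusted p = 0.000233 and 0.00074), and Ndufb9 was at 491 to 561 CPM in RES, 450.1 to 492 in ANH, 504 to 542 in SA and 454 to 498 in SA:ANH. Atp5j, of the ATP synthase, fell by 0.13, and Cox6a1, of cytochrome oxidase, by 0.12. None of the 15 mitochondrially encoded genes of that list, which holds no transfer RNA gene, passed (median -0.06), and 7 of them passed lower with GC and length trends taken out. Among 79 ribosomal protein genes 7 fell and 1 rose, with a median of -0.05. With GC and length trends taken out 5 of the 79 fell and 1 rose, and their median was 0.003. Their median was -0.07 both without replicates 1 and 2 of SA:ANH (4 falls) and without replicates 5 and 6 of ANH (6 falls). With GC and length trends taken out, 12 respiration genes fell and 4 rose, Ndufb9 no longer passed (-0.03) and Cox6a1 turned to 0.04. Without replicates 1 and 2 of SA:ANH, 13 fell and none rose, and without replicates 5 and 6 of ANH, 18 fell and none rose.

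**Figure D4:**
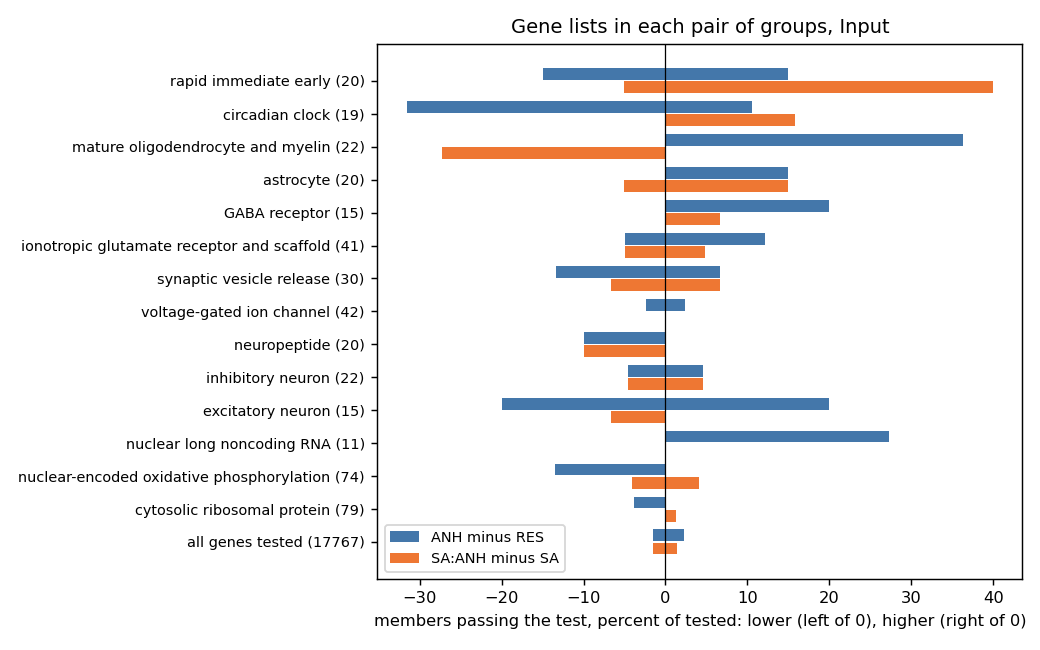
Percent of the tested members of each list (number tested in brackets) that passed higher (right of 0) or lower (left of 0) between ANH and RES (blue) and between SA:ANH and SA (orange). The myelin bars point in opposite directions (8 rises against 6 falls of 22), the clock bars are mostly lower in blue and higher in orange, and the bars for all 17767 genes are short.

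These small shifts ran along with transcript composition. Median GC content was 44.4% for the genes that rose, 53.7% for those that fell and 49.9% for the rest, and median transcript length was 3934, 1363 and 3058.5 bases. In the lowest of 10 bins of nearly equal size of genes by GC content, 159 rose and 13 fell, and in the highest bin 12 rose and 136 fell. The correlation of log2 level with GC content was negative in all 6 ANH libraries (-0.0885 to -0.483), positive in 5 of 6 RES libraries, and of both signs in SA and SA:ANH. With the trends of each library on GC and length taken out, 780 genes passed (378 higher and 402 lower), of which 559 had passed before. Of the genes named by rule and scored in that fit, 63 kept their call or lack of one, 15 lost their call and 2 changed sign. Ap3b2 and Olfm1, named by the difference between fractions, were not scored there. These scores concern the main effect, or the interaction for genes named by it alone, and not the 2 pairs. Of 55 genes named by rule that passed between ANH and RES, 25 no longer passed in that fit and 2 changed sign. Of 43 that passed between SA:ANH and SA, 11 no longer passed. The interaction calls of Arc, Dusp1, Fos, Nr4a1, Junb, Dbp, Ciart, Nr1d1, Mbp, Mobp, Car2 and Ptgds passed in that fit and without either pair of libraries.

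**Figure D5:**
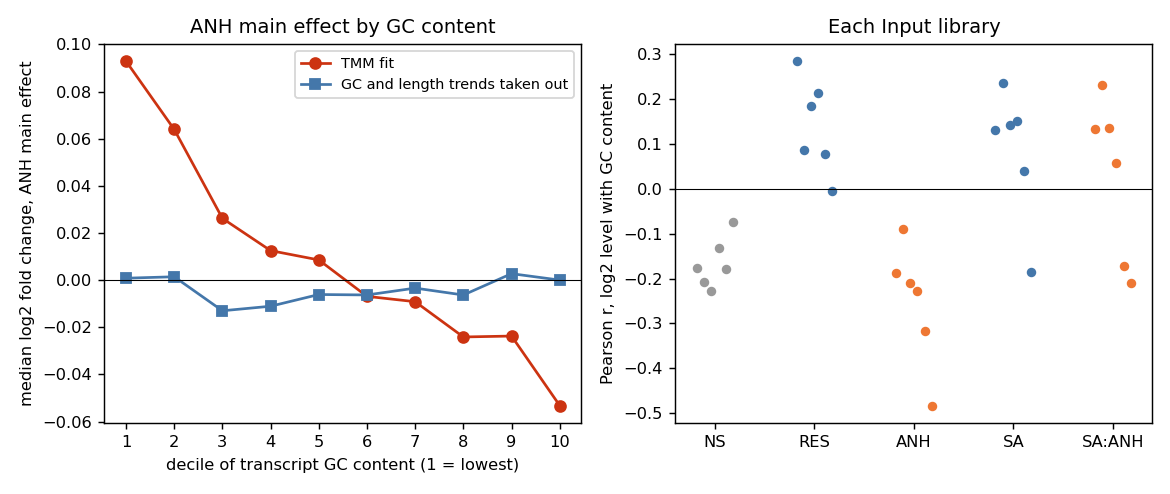
Left, median log2 fold change of the ANH main effect (y axis) in 10 bins of nearly equal size of the tested genes by transcript GC content (x axis), before (red) and after (blue) each library's GC and length trends were taken out. Right, Pearson correlation of log2 level with GC content across genes in each Input library, where all 6 ANH libraries lie below 0 and RES libraries lie mostly above it.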

How the data were processed

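Bulk mPFC tissue (Input) and GFP pulldown (IP) libraries were made with SMART-Seq v4 and TruSeq kits and sequenced as paired reads of 100 bases, per the labels' protocols. Bowtie2 2.2.3, TopHat2 2.0.13, Trimmomatic 0.32 and mm10 appear in the submitters' processing notes. The sources used here do not state the counting tool, its use of strand or the annotation. The authors deposited expected counts per gene for 55414 genes, of which 88.4% of values were whole within 0.000001, and these were rounded to whole numbers. Of the deposited gene starts, 2.88% equalled those of GENCODE vM21, so deposited positions are not printed. Groups were taken from the labels. The 24 Input libraries were fitted with 4 group means in edgeR 4.0.16 (R 4.3.3), with TMM factors, filterByExpr at a minimum count of 10, a quasi-likelihood test and Benjamini-Hochberg adjustment at 0.05 over all 17767 genes tested. The same fit was run on 24 IP libraries, and on both fractions together. The fit on both fractions used group means alone and did not link Input and IP libraries of equal group and number. A fit with that link was also run, and its counts are not given here. CPM values of single genes in Input use TMM factors over the 30 Input libraries, and those in IP use factors over the IP libraries. Summed list levels were scaled by library totals alone. Coefficients of variation, and the averages of Tatdn1 and Lrrc17, use factors over the 24 Input libraries. Library totals of at least 20566990 counts leave counting error below the spread between replicates for most genes at 100 CPM or more.

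The text names the 14 largest rises and falls at a mean of 10 CPM or more on the higher side, the 6 smallest adjusted p in both pairs and in the interaction, up to 4 genes per described list, the 4 smallest in the difference between fractions, and Fos, Fkbp5 and Bdnf. Other genes named as list members, among them Ier2, Jun, Jund and Egr1, were chosen after their values were seen. Some genes that these choices name are not reported here. Members and lists were chosen with earlier results of these data known. Alternatives were RLE factors, DESeq2 1.42.0, limma 3.58.1 (voom with quality weights), no filter, NS in the fit, a replicate block, predicted genes left out, and only the 12 libraries compared. GC and length trends taken out (loess, span 0.5) and 2 library removals were chosen after seeing the data. The fits were tested on simulated data.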

Additional observations from a re-analysis of the deposited data

Results flagged for a closer look

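Single libraries stood far from the other 5 of their group, by Dixon's test at the 95% level, in 19 of 332 groups of values tested, where chance gives about 1 in 20. In RES these were Ccn1 in replicate 1 (11.1 CPM), Tmem184c in replicate 2 (30.2 CPM) and Dusp1 in replicate 6 (52.2 CPM). Replicate 4 of RES stood apart for Neurod6 (102.7 CPM), Gria3 (81.6 CPM), Dlgap3 (74.8 CPM) and Cox6a1 (982 CPM). In ANH they were Napb in replicate 3 (509.7 CPM) and Gad1 in replicate 5 (259 CPM). In SA they were Miat in replicate 1 (39.6 CPM), Junb and Gjb6 in replicate 3 (133 and 60.9 CPM), S100b and Nxph1 in replicate 5 (96.4 and 30.3 CPM) and Dlg1 in replicate 6 (56.4 CPM). In SA:ANH they were Gria2 in replicate 1 (196 CPM), Ptgds in replicate 2 (538 CPM), and Tspan2 and Ndufb9 in replicate 5 (22.7 and 454 CPM).

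The change with the ANH label differed between the pair with SA and the pair without it, by the interaction test, for 16 of the genes named by rule and reported here. It was more positive with SA for Ciart (1.09), Nr4a1 (0.96), Fos (0.86), Dbp (0.82), Dusp1 (0.76), Per1 (0.69), Arc (0.62), Junb (0.59) and Nr1d1 (0.51), as log2 differences. It was more negative for Malat1 (-0.61), Ptgds (-0.54), Meg3 (-0.44), Mbp (-0.41), Mobp (-0.33), Snhg11 (-0.30) and Car2 (-0.25).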

How the results depend on the processing

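With GC and length trends taken out, 780 genes passed the main effect, 335 the pair without SA and 43 both pairs in one direction, and Cck and Cox6a1 turned to 0.0168 and 0.0424 (log2). Without replicates 1 and 2 of SA:ANH, 104 passed the pair with SA, 43 the interaction and 42 both pairs. Without replicates 5 and 6 of ANH, 631 passed the main effect, 214 the pair without SA, 48 the interaction, 226 the SA main effect and 34 both pairs. DESeq2 gave 1191 in the pair without SA, 832 with it, 349 for the interaction, 600 for the SA main effect and 153 in both pairs. The interaction count was 139 with limma voom and 136 with NS in the fit. The pair with SA gave 303 with predicted genes left out and 276 from its 12 libraries alone, which left 44 genes in both pairs. The cause of these shifts was not tested, and the fits with fewer libraries had fewer samples. With RLE factors all 82 named genes kept their call or lack of one. With GC and length trends taken out 63 did, without replicates 1 and 2 of SA:ANH 71, and without replicates 5 and 6 of ANH 65. Ap3b2 and Olfm1, named by the difference between fractions, were scored with RLE factors but not in these other fits. The scores leave out the 2 pairs, where more calls were lost. Of 55 named genes past the pair without SA, 25 were lost with GC and length trends taken out and 18 without replicates 5 and 6 of ANH. Of 43 past the pair with SA, 11 were lost with those trends taken out and 22 without replicates 1 and 2 of SA:ANH.

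Correlations of deviations between same-numbered libraries of 2 groups were -0.0686 to 0.108, and in 11 of 36 comparisons the best match was the same number. Since not every correlation was over 0.1, the numbers were not taken as pairs. That rule cannot show that libraries of equal number share nothing, and a batch shared by replicate number was not tested. Replicate 6 nevertheless had the lowest correlation of level with GC content in each of the 4 groups (-0.185 in SA, -0.21 in SA:ANH, -0.483 in ANH and -0.00384 in RES). In NS, replicate 6 had the highest (-0.0742). With the replicate block the main effect gave 1445 genes, the interaction 192 and both pairs 120.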
